A study of Rattus norvegicus with 8 samples.

Results

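Heat shock proteins and muscle chaperones were described on arrays of rat extraocular muscle, the small muscles that move the eye. The set was a list of 10 genes (Hsp90ab1, Hsp90aa1, Hspa8, Hspa5, Hspb1, Cryab, Hspb6, Hspb7, Hspb8 and Hspd1), and each gene was matched by its symbol in the array annotation. A probe set, a group of short probes against 1 transcript, was taken only where the annotation gave it a single symbol. By this rule 8 of the 10 genes were measured, with 11 probe sets, out of 14217 genes measured on the array. Hsp90aa1 had 2 probe sets and Hspa8 had 1, and each of these carried the symbol of a further gene, so no value is given for either. Hsp90ab1, Hspb7 and Hspb8 had 2 probe sets each, and the other 5 genes had 1.

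Total RNA was hybridised to Affymetrix arrays, in 8 adult Sprague-Dawley rats. In the hyperthyroid group (arrays 1, 2, 3 and 5), T3 (the active form of thyroid hormone) was injected into the peritoneum on alternate days over 6 weeks, at 25 µg for each 100 g of weight, and the tissue was collected 24 hours after the last dose. The control group (arrays 7, 8, 9 and 11) was untreated, and the labels mention no injection of vehicle. The initial body weight was 200 ± 40 g, and the labels give no sex.

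Molecular chaperones bind unfolded or damaged proteins, hold them in a soluble state and help them fold. HSP90 and HSP70 proteins use ATP for this in the cytosol, Hspa5 (BiP) does so in the endoplasmic reticulum, and Hspd1 forms the folding chamber of the mitochondrial matrix together with its lid Hspe1. The small heat shock proteins (Hspb1, Cryab, Hspb6, Hspb7 and Hspb8) need no ATP, are abundant in striated muscle and bind to the Z-disc and the contractile filaments under stress. Many of these genes are activated through the heat shock element, an inverted repeat of the unit GAA that binds heat shock factors, and Hspa5 through an element that answers to unfolded protein in the endoplasmic reticulum.

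The start regions of the members with a probe set whose groups did not overlap, Hsp90ab1, Hspd1 and Hspb8, are shown to let the sequences before their start sites be compared. They are the 250 bases before the annotated start, from RefSeq on the GRCr8 assembly, with a searched motif in capitals. RefSeq windows were matched for 7 of the 8 measured members, Cryab being the one without. The Hsp90ab1 region, chr9:22930173-22930422 on the plus strand, held the cyclic AMP response element TGACGTCA from 180 to 173 bases before the start. The Hspd1 region, chr9:64084038-64084287 on the minus strand, held overlapping heat shock elements from 242 to 225 bases before the start. The Hspb8 region, chr12:45837058-45837307 on the plus strand, held a head-to-head pair of the unit from 23 to 16 bases before the start.
Hsp90ab1: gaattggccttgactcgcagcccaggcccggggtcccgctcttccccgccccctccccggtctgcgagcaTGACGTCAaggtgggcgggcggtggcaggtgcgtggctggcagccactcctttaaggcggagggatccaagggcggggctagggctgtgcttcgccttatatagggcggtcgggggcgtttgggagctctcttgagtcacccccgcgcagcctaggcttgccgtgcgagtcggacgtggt
Hspd1: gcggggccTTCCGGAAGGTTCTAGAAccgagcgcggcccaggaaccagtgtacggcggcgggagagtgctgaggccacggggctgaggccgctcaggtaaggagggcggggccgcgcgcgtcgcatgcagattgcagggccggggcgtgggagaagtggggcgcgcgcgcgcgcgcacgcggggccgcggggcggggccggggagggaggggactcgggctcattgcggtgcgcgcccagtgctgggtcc
Hspb8: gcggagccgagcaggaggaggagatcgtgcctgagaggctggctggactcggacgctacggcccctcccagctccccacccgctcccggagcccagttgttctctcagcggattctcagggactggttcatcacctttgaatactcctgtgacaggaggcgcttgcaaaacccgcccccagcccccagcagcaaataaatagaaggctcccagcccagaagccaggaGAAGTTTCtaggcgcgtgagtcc

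Short stretches of 30 bases show the matching elements, in capitals, of members whose groups overlapped on the arrays. In Hspb1 (chr12:26432412-26432441 and chr12:26432392-26432421, minus strand) 2 head-to-head pairs lay 129 to 122 and 109 to 102 bases before the start. In Hspb6 (chr1:94934212-94934241 and chr1:94934122-94934151, plus strand) a head-to-head pair lay 149 to 142 and a tail-to-tail pair 239 to 232 bases before the start. In Hspa5 (chr3:38452967-38452996, plus strand) the endoplasmic reticulum stress element lay 43 to 25 bases before the start.
Hspb1, first pair: cttcaactagaGAAGTTTCcagatgggggc
Hspb1, second pair: agatgggggcaGAACCTTCctggccctgcc
Hspb6, head to head: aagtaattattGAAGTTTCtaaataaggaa
Hspb6, tail to tail: ttagcttccccTTCTAGAAatggaaaaagg
Hspa5: agttcaCCAATCGGAGGCCTCCACGacggg

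The search covered both strands of the 300 bases from 250 before to 50 after each start, in 33469 RefSeq windows of the assembly. The full element GAANNTTCNNGAA was found in 0.798% of all windows and, among the 7 members, in Hspd1. The pair GAANNTTC was found in 8.59% of windows and in 4 members (Hspb1, Hspb6, Hspb8 and Hspd1). The pair TTCNNGAA was found in 8.77% of windows and in 2 members (Hspb6 and Hspd1). The full element contains both pairs, so in Hspd1 these matches are the same bases. The motif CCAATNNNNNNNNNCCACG was found in 0.0657% of windows and in Hspa5, and TGACGTCA in 1.83% of windows and in Hsp90ab1. A direct repeat of the thyroid receptor half-site, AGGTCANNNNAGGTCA, was found in 0.00598% of windows and in 0 members. These matches describe letters in a window and do not show that a factor binds there.

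Arrays differed in cell type markers, sex-linked transcripts and measures of RNA quality, and these values bear on the results below. All 8 carried abundant skeletal muscle transcripts: the summed signal of 6 fibre markers ran from 102126 to 142194 in the hyperthyroid group and from 109786 to 137103 in the controls, and 0 of the 6 had an unadjusted limma p under 0.05. The array hyperthyroid 5 went against the tissue label: Myh13, the myosin that defines extraocular muscle, stood at 4.17 there and at 5430 to 9340 elsewhere. Its slow-fibre markers summed to 55880, against 9714 to 23353 elsewhere. Glial markers, with 2 of 3 at an unadjusted limma p under 0.05, summed to 76.2 on hyperthyroid 5, to 1052 on hyperthyroid 2 and to 6725 to 15136 on the others. Endothelial markers, with 1 of 3 at that level, summed to 1130 to 1442 in the hyperthyroid group and 941 to 1103 in the controls. These sums separated the groups, so they cannot be told apart from treatment. Kdr separated the groups by itself, while Pecam1 and Tek overlapped. Xist, transcribed from the inactive X chromosome, stood at 1259 on hyperthyroid 1 and 1582 on control 11, and at 25.3 or lower elsewhere on the same probe set. Eif2s3y, a gene of the Y chromosome, stood at 6.32 on hyperthyroid 1 and 16.2 on control 11, and at 533 to 927 elsewhere. By these transcripts hyperthyroid 1 and control 11 carried the female pattern and the other arrays the male pattern. The ratio of 3 prime to 5 prime signal rises where RNA is degraded or copied in part. For Gapdh it was 3.91, 4.40, 2.18 and 1.44 on hyperthyroid 1, 2, 3 and 5 and 1.67 to 1.97 in the controls (two-sided exact permutation p = 0.229). For Actb it was 5.53, 6.41, 4.41 and 3.33 on the same arrays and 2.97 to 3.72 in the controls (two-sided exact permutation p = 0.114). The member results are given with and without hyperthyroid 5, and those of the other chaperone genes where leaving it out changed a count or moved a value by a wide margin. Fits with the log2 Gapdh ratio as a covariate are given for some probe sets. Beyond these fits, the part of cell makeup and RNA quality in the results was not tested.

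Hsp90ab1, the constitutive cytosolic HSP90 that keeps kinases and steroid receptors in a folded state, had the smallest p-values of the members and lay lower in hyperthyroid muscle on both of its probe sets. On its brighter probe set (1375336_at) the signal, on the linear scale of the array, was 2957, 3065, 2530 and 2874 on hyperthyroid 1, 2, 3 and 5. In the controls it was 3906, 4228, 4018 and 4662 on arrays 7, 8, 9 and 11. Every hyperthyroid array lay below every control array, and hyperthyroid 5 lay among the other 3 of its group. The means were 2857 ± 231 and 4204 ± 334 (SD, n = 4 each), and the geometric mean was 1.47-fold higher in the controls. On the log2 scale the difference, hyperthyroid minus control, was -0.56 ± 0.12 (SE; 95% interval -0.82 to -0.30). Its limma p was 0.00061 before adjustment and 0.214 after adjustment by Benjamini-Hochberg across 18625 tested probe sets, so it did not pass the threshold of 0.05. Without hyperthyroid 5 the difference was again -0.56, with an adjusted limma p of 0.0795. In whole muscle, fewer cells of a type and less RNA per cell cannot be told apart, here or in the results that follow.

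The dimmer Hsp90ab1 probe set (1375335_at) lay in the same direction. Its signal was 175, 181 and 176 on hyperthyroid 1, 2 and 3 and 344 on hyperthyroid 5, against 378, 454, 390 and 471 in the controls. The groups did not overlap, but hyperthyroid 5 lay nearer to the controls than to the other 3 hyperthyroid arrays. Over all 8 arrays the means were 219 ± 83.5 and 423 ± 46.1 (SD, n = 4 each), and the log2 difference was -1.01 ± 0.23 (SE; 95% interval -1.51 to -0.51), with an adjusted limma p of 0.221. Without hyperthyroid 5 the 3 remaining arrays had a mean of 177 ± 3.32 (SD), the log2 difference was -1.25 ± 0.16 (SE; 95% interval -1.59 to -0.90) and the adjusted limma p was 0.0169. In that fit this probe set fell, 2.38-fold in geometric mean, and it was the single member probe set past the threshold. The Gapdh ratios of hyperthyroid 1, 2 and 3 (3.91, 4.40 and 2.18) all lay above those of the controls (1.67 to 1.97). Without hyperthyroid 5 the groups therefore differed in this ratio as well as in treatment, and its part was not tested. That fit called 29 of 18625 probe sets, or 0.156%, whereas the fit to all 8 arrays called 0% (0 of 18625, with a smallest adjusted p of 0.151). With the log2 Gapdh ratio as a covariate the difference over all 8 arrays was -0.69, with an adjusted limma p of 0.182. With median centring of each array the groups of this probe set overlapped.

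The size of the difference was not the same on both Hsp90ab1 probe sets. Relative to the control mean, the log2 signal of 1375335_at differed from that of 1375336_at by -0.77, -0.77 and -0.53 on hyperthyroid 1, 2 and 3, and by 0.25 on hyperthyroid 5. On the 4 control arrays both probe sets moved together, with an SD of 0.0696 for their difference. The mean gap in the hyperthyroid group was -0.45 (two-sided exact permutation p = 0.143, or 0.190 adjusted over the 4 pairs of probe sets tested; the smallest p that 4 against 4 arrays allow is 0.0286). Without hyperthyroid 5 the gap was -0.69. Both probe sets lay below their control mean on all 4 hyperthyroid arrays, the dimmer one by more than the brighter one on 3 of them.

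**Figure D1:**
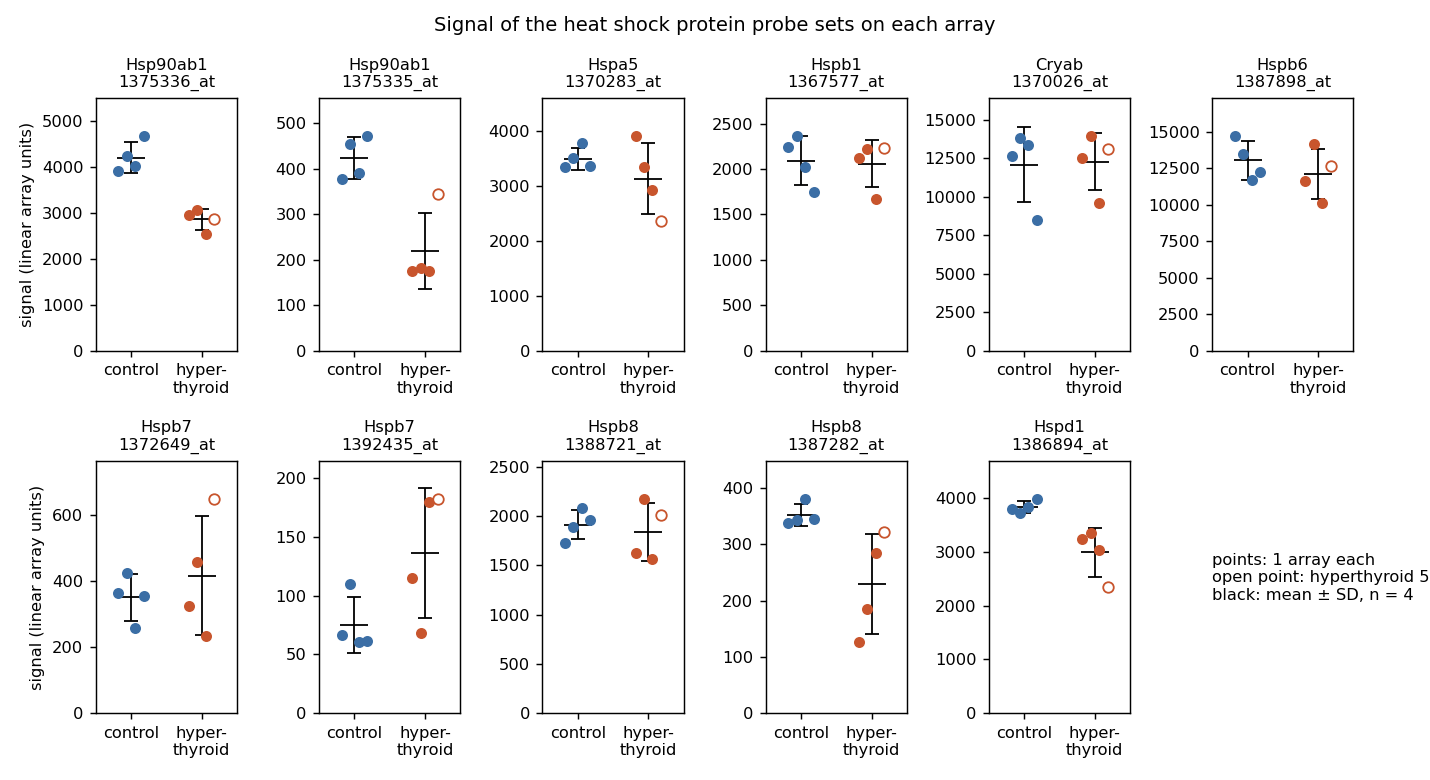
Signal on the linear array scale (vertical axes from 0, a separate scale for each panel) of the 11 member probe sets in control and hyperthyroid muscle. Each point is 1 array, the open point is hyperthyroid 5, and black lines give the mean ± SD (n = 4). Both Hsp90ab1 panels, Hspd1 and the dimmer Hspb8 probe set show every hyperthyroid point below every control point, with signals of 2530 to 3065 against 3906 to 4662 on Hsp90ab1 1375336_at.

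Hspd1, the chaperonin of the mitochondrial matrix, also separated the groups. Its signal (1386894_at) was 3229, 3342, 3027 and 2338 on hyperthyroid 1, 2, 3 and 5, against 3787, 3724, 3819 and 3970 in the controls. All hyperthyroid arrays lay below all controls, and the lowest was hyperthyroid 5. The means were 2984 ± 449.9 and 3825 ± 105 (SD, n = 4 each), a 1.29-fold difference in geometric mean. The log2 difference was -0.37 ± 0.13 (SE; 95% interval -0.67 to -0.08), with a limma p of 0.0178 before and 0.344 after adjustment. It was -0.26 without hyperthyroid 5, with an adjusted limma p of 0.257. After quantile normalization it was -0.28, with an unadjusted limma p of 0.0903. With the log2 Gapdh ratio as a covariate it was -0.54, with an adjusted limma p of 0.0942.

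Hspe1, the lid of the same chaperonin, is not a member but is the neighbour of Hspd1 in the genome. Both genes lie head to head on chromosome 9 with starts 290 bases apart, and their windows share 211 bases, the heat shock elements printed for Hspd1 among them. The Hspe1 signal was 3827, 2756, 3076 and 3585 in the hyperthyroid group and 3179, 2994, 3620 and 2793 in the controls. These groups overlapped, and the log2 difference was 0.07 ± 0.14 (SE; 95% interval -0.24 to 0.38), which turned to -0.05 under median centring. Within an array, Hspd1 relative to Hspe1 differed from the control mean by -0.53, -0.01, -0.31 and -0.90 on hyperthyroid 1, 2, 3 and 5. The mean of these, -0.44, had a two-sided exact permutation p of 0.0857, or 0.171 adjusted over the 4 pairs, and was -0.28 without hyperthyroid 5. At this number of arrays the genes of the pair could not be shown to differ from each other.

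Among the small heat shock proteins, Cryab, Hspb1 and Hspb6 lay close to the controls. Cryab (αB-crystallin), which binds desmin and other filaments, had signals of 9596 to 13903 in the hyperthyroid group and 8491 to 13814 in the controls. The means were 12274 ± 1874 and 12069 ± 2434 (SD, n = 4 each), and the log2 difference was 0.04 ± 0.18 (SE; 95% interval -0.36 to 0.43), which turned to -0.08 under median centring. Its lowest value in each group was on hyperthyroid 3 and on control 11. Hspb1, which binds actin filaments, had signals of 1673 to 2232 and 1747 to 2358, and a log2 difference of -0.02 ± 0.14 (SE; 95% interval -0.34 to 0.29), which turned to 0.04 under quantile normalization. Hspb6, which is found with Cryab in large complexes, had signals of 10097 to 14178 and 11729 to 14692, and a log2 difference of -0.11 ± 0.14 (SE; 95% interval -0.42 to 0.20). The adjusted limma p was 0.952 for Cryab, 0.962 for Hspb1 and 0.782 for Hspb6.

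Hspb8, which works with Bag3 to pass damaged filament proteins to autophagy, gave different values on its 2 probe sets. The brighter one (1388721_at) stood at 1624, 2171, 1562 and 2006 on hyperthyroid 1, 2, 3 and 5, against 1728 to 2083 in the controls. These groups overlapped, with a log2 difference of -0.07 ± 0.14 (SE; 95% interval -0.37 to 0.24). The dimmer one (1387282_at) stood at 127, 185, 284 and 321 against 338, 344, 380 and 346. Here every hyperthyroid array lay below every control, and hyperthyroid 1 and 2, the arrays with the 2 highest Gapdh ratios, were the lowest. The log2 difference was -0.71 ± 0.26 (SE; 95% interval -1.28 to -0.13), with a limma p of 0.0204 before and 0.351 after adjustment. It was -0.28 with the log2 Gapdh ratio as a covariate, with an unadjusted limma p of 0.214. It was -0.45 without hyperthyroid 1 and -0.90 without hyperthyroid 5. With median centring of each array the groups of this probe set overlapped.

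Set against each other within an array, the Hspb8 probe sets differed from the control mean by -1.23 and -1.11 on hyperthyroid 1 and 2. They differed by -0.02 and -0.20 on hyperthyroid 3 and 5. The mean gap was -0.64 (two-sided exact permutation p = 0.0571, or 0.171 adjusted over the 4 pairs). The gap was widest on hyperthyroid 1 and 2 and near 0 on hyperthyroid 3; the brighter probe set lay below all controls on hyperthyroid 1 and above them on hyperthyroid 2.

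Hspb7, a small heat shock protein of heart and skeletal muscle, had higher mean signals in the hyperthyroid group on both probe sets, with a wide spread between its arrays. Its brighter probe set (1372649_at) stood at 324, 459, 235 and 648 on hyperthyroid 1, 2, 3 and 5, and at 363, 426, 258 and 356 in the controls. The groups overlapped, and the highest value was on hyperthyroid 5, the array with the highest slow-fibre signal. The log2 difference was 0.17 ± 0.29 (SE; 95% interval -0.46 to 0.79), and -0.08 without hyperthyroid 5. The dimmer probe set (1392435_at) stood at 115, 67.9, 180 and 182 against 66.9, 110, 60.9 and 61.8. Of the hyperthyroid arrays, 3 lay above all controls, while hyperthyroid 2 lay below control 8. The log2 difference was 0.80 ± 0.35 (SE; 95% interval 0.04 to 1.56), with a limma p of 0.0418 before and 0.416 after adjustment, and 0.62 without hyperthyroid 5, with an unadjusted limma p of 0.112. It was 1.29 with the log2 Gapdh ratio as a covariate and 1.10 without hyperthyroid 2, where the groups did not overlap, with adjusted limma p-values of 0.131 and 0.359. The gap between both probe sets ran from -0.51 on hyperthyroid 2 to 1.86 on hyperthyroid 3 (two-sided exact permutation p = 0.286, the same after adjustment).

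Hspa5 (BiP), the HSP70 of the endoplasmic reticulum, overlapped between the groups. Its signal was 3898, 3341, 2927 and 2361 on hyperthyroid 1, 2, 3 and 5, against 3341, 3503, 3773 and 3357 in the controls. The hyperthyroid group held both the highest and the lowest of the 8 values. The means were 3132 ± 650 and 3494 ± 200 (SD, n = 4 each), so the SD was larger in the treated group. The log2 difference was -0.18 ± 0.15 (SE; 95% interval -0.52 to 0.16), with an adjusted limma p of 0.666, and it was -0.05 without hyperthyroid 5. With the log2 Gapdh ratio as a covariate it was -0.40, with a limma p of 0.0101 before and 0.216 after adjustment.

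**Figure D2:**
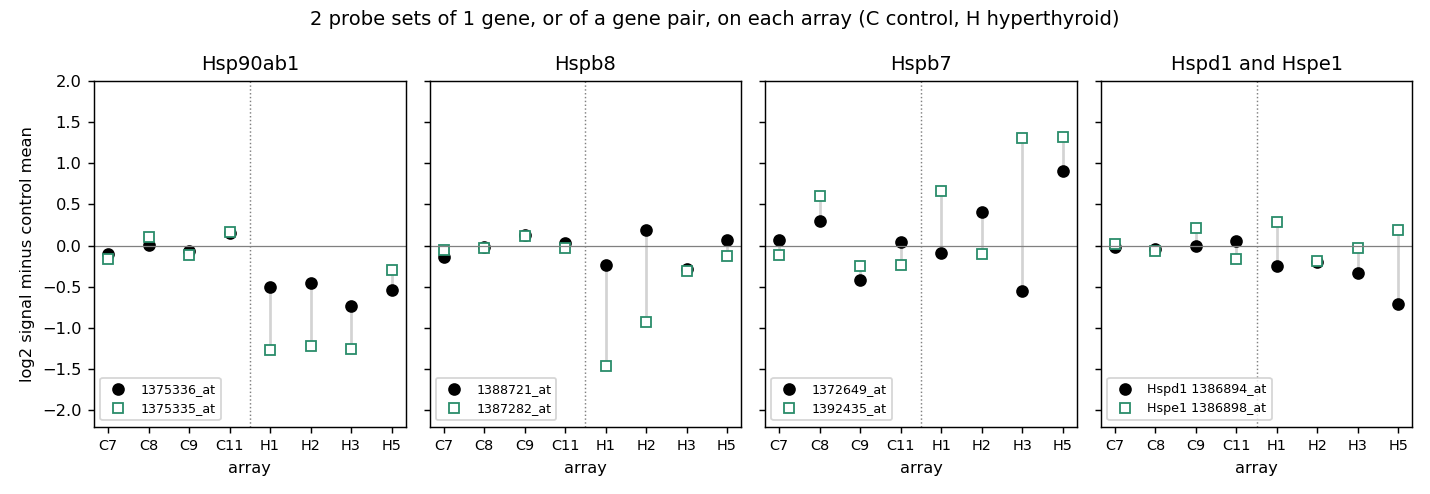
Log2 signal minus its control mean (vertical axis) on each of the 8 arrays (horizontal axis) for the paired probe sets of Hsp90ab1, Hspb8 and Hspb7, and for Hspd1 with Hspe1. Grey lines join the pair on 1 array; the gap reached -1.23 for Hspb8 on hyperthyroid 1 and 1.86 for Hspb7 on hyperthyroid 3.

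Across the 11 member probe sets, all of which passed the filter on dim probe sets, 8 lay lower and 3 higher in the hyperthyroid group, with a median log2 difference of -0.11. With median centring, which moved the median over all tested probe sets by -0.12, 9 lay lower and 2 higher, and with quantile normalization 7 lay lower and 4 higher. Without hyperthyroid 3, 6 lay lower and 5 higher, and the median was -0.03. The median over all 18625 probe sets tested was 0.03, and over the brightest 20% of them it was -0.06. No member passed the adjusted threshold on all 8 arrays (0 of 11, as for all probe sets). At an unadjusted limma p under 0.05, 4 were lower (both of Hsp90ab1, Hspd1 and the dimmer Hspb8 probe set) and 1 was higher (the dimmer of Hspb7). Of all probe sets tested, 5.3% were lower and 6.25% higher at that level. The groups did not overlap on 4 of 11 probe sets, all lower in hyperthyroid muscle, and on 0 in the other direction. Over all 31042 probe sets, 2.42% were lower without overlap and 3.69% higher. These shares include dim probe sets, whereas all 11 member probe sets passed the filter. Both Hsp90ab1 probe sets are among the 4, so these are not 4 separate genes. The members were chosen with earlier results of these data known, so the counts describe the set and do not test it.

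The same counts were made without hyperthyroid 5, and the same limits hold. At an unadjusted limma p under 0.05, 4 probe sets were lower and 0 higher, where 7.64% of all probe sets tested were lower. On 4 member probe sets the groups did not overlap, all lower, against 4.77% of all probe sets. The median log2 difference was -0.11 in that fit, beside 0.04 over all probe sets tested. Array by array, the median member lay at -0.16, -0.06, -0.31 and -0.04 on hyperthyroid 1, 2, 3 and 5 and at -0.06 to 0.05 in the controls, as log2 signal minus the control mean.

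**Figure D3:**
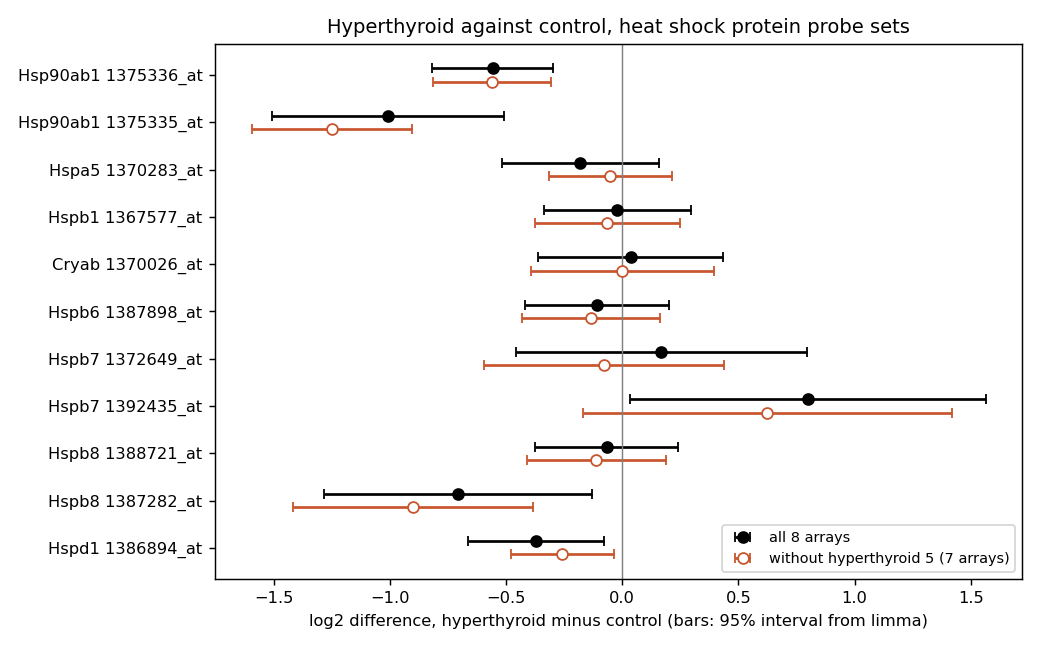
Log2 difference, hyperthyroid minus control (horizontal axis), of each member probe set with its 95% interval from limma, over all 8 arrays (filled) and without hyperthyroid 5 (open, 7 arrays). Both Hsp90ab1 probe sets, the dimmer Hspb8 probe set and Hspd1 have intervals below 0 in both fits; Cryab, at 0.04 here, turned to -0.08 under median centring and Hspb1, at -0.02, to 0.04 under quantile normalization.

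The other genes of the chaperone system were counted from a list of 83, each through its brightest probe set. Of these, 82 had a probe set and 78 passed the filter; 46 lay lower and 32 higher in the hyperthyroid group, with a median log2 difference of -0.09 beside 0.01 over all 10446 genes tested. At an unadjusted limma p under 0.05, 7 were lower and 6 higher, and 0 passed after adjustment. Over all genes tested, 5.83% were lower and 6.34% higher at that level. Median centring, which moved the median over all tested probe sets by -0.12, gave 14 lower and 2 higher. The shares of all genes under median centring are not given, so this count has no background beside it. Without hyperthyroid 5, 18 genes reached that level (12 lower and 6 higher), where 16% of all genes tested did so in either direction, and 0 passed after adjustment. The values in the next 3 paragraphs are log2 differences with their SE, over all 8 arrays and on the brightest probe set unless stated. Over all 8 arrays the adjusted limma p of every gene named there was 0.269 or higher.

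Of the other HSP90 family members and HSP90 partners, 1 of 12 was lower at that level and 0 were higher. It was Hsp90b1 (Grp94), the HSP90 of the endoplasmic reticulum, at -0.53 ± 0.19. Unc45a, a partner of HSP90, stood at 0.42 ± 0.19. The other 10 lay between -0.19 ± 0.11 for Ptges3 (p23), which steadies the closed form of HSP90, and 0.13 ± 0.15 for Cdc37, which brings it kinases. Ptges3 had every hyperthyroid array below every control, at 1751 to 1959 against 1983 to 2307. Unc45a had every hyperthyroid array above every control, at 173 to 234 against 118 to 170. Of all 31042 probe sets, 2.42% were lower without overlap and 3.69% higher. Without hyperthyroid 5, Hsp90b1 was lower and Unc45a higher at that level. Of the HSP70 family, 1 of 10 was lower and 1 higher. Hspa9 (mortalin), the HSP70 of mitochondria, stood at -0.41 ± 0.15, and Hspa14 at 0.50 ± 0.22. The other 3 probe sets of Hspa9 did not share 1 direction, at -0.57, 0.91 and -0.15. Hspa1a, the classical heat-inducible HSP70, stood at -0.29 ± 0.19. Hsph1, which exchanges the nucleotide on HSP70, stood at 0.40 ± 0.22 and at -0.08 on its dimmer probe set. Without hyperthyroid 5, Hsph1 stood at 0.56 ± 0.20 and was counted as higher in place of Hspa14, which stood at 0.39 ± 0.23. Of 7 BAG and CHIP cochaperones, which steer HSP70 clients towards folding or breakdown, 0 were at that level. Hspbp1 stood at -0.39 ± 0.24 and Bag5 at -0.22 ± 0.16. Bag3, the partner of Hspb8, stood at -0.20 ± 0.18, and at -0.02 ± 0.13 without hyperthyroid 5.

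Of 14 J-domain proteins, which deliver clients to HSP70, 1 was lower and 2 were higher. Dnaja4 stood at 0.56 ± 0.15, with signals of 903, 1037, 721 and 1044 against 610, 616, 595 and 672, and its groups did not overlap; a dimmer probe set of the gene stood at -0.27 ± 0.56. Dnajb6, which protects the Z-disc, stood at 0.31 ± 0.14, and Dnajc7 at -0.37 ± 0.14. Dnajb1, a heat-inducible J-domain protein, stood at 0.06 ± 0.16 and turned to -0.06 under median centring. Of the other small heat shock proteins, Hspb3 stood at -0.71 ± 0.25 and Hspb2, its partner in muscle, at -0.26 ± 0.15. Hspb3 had signals of 363, 659, 623 and 1007 against 899 to 1129, so that hyperthyroid 5 alone lay inside the control range. Without that array it stood at -0.94 ± 0.20, with an adjusted limma p of 0.0795.

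Of 16 genes of the endoplasmic reticulum, 1 was lower and 0 were higher. It was Pdia4, a disulfide isomerase, at -0.97 ± 0.26, with signals of 155, 91.6, 76.8 and 91.8 against 172, 177, 179 and 269. P4hb, another disulfide isomerase, stood at -0.28 ± 0.14. Without hyperthyroid 5 the count was 5 lower of 16: Pdia4 at -0.93 ± 0.28, P4hb at -0.35 ± 0.13, Sil1 at -0.79 ± 0.32, and the stress-response factors Atf4 at -0.37 ± 0.13 and Xbp1 at -0.37 ± 0.14. Their adjusted limma p-values ran from 0.162 to 0.28. Of the 5 mitochondrial chaperones besides Hspd1, 0 were at that level; Grpel1, the nucleotide exchange factor of Hspa9, stood at -0.29 ± 0.14 and Clpx at -0.18 ± 0.13. Grpel1 was lower at that level without hyperthyroid 5, at -0.35 ± 0.14. Of 8 subunits of the cytosolic chaperonin TRiC, which folds actin and tubulin, Cct8 was lower at -0.37 ± 0.12 and Cct3 higher at 0.34 ± 0.11. These 2 were named for their smallest p among the subunits. On these probe sets both separated the groups, in opposite directions. A dimmer probe set of Cct8 stood at -0.16 ± 0.17, and its groups overlapped. Of 4 genes in the list of heat shock factors, which switch on many chaperone genes, 2 were higher and 1 lower. Hsf2 stood at 0.49 ± 0.15, with 0.34 and -0.21 on further probe sets, Hsf4 at 0.94 ± 0.36 and Hsbp1, a small protein that binds Hsf1, at -0.34 ± 0.14. Hsf1 itself stood at 0.34 ± 0.18. Without hyperthyroid 5, Hsf4 no longer reached that level, at 0.88 ± 0.42. Of the other named genes, Hsf1 and Hsf2 also lay higher without overlap on their brightest probe sets. Hspb2, Hspa9, Dnajc7, Grpel1, Pdia4 and Hsbp1 lay lower without overlap. Such separation was found on 2.42% (lower) and 3.69% (higher) of all 31042 probe sets.

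**Figure D4:**
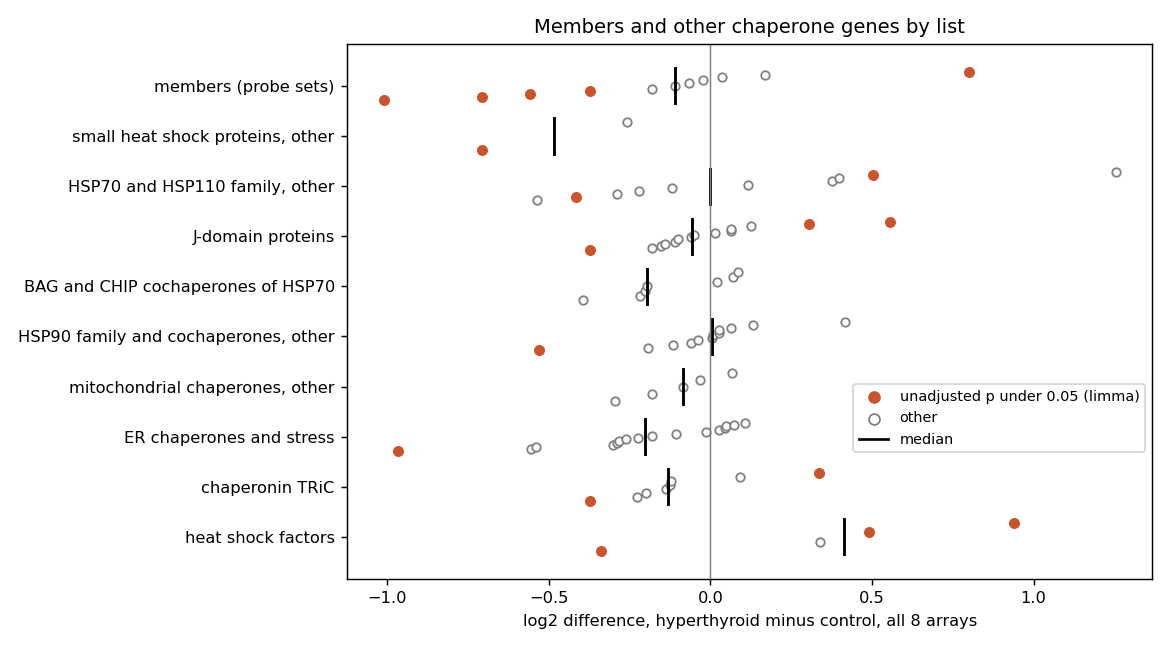
Log2 difference, hyperthyroid minus control over all 8 arrays (horizontal axis), of the 11 member probe sets and of 78 other chaperone genes by list; filled points have an unadjusted limma p under 0.05 and black bars are medians. Points lie on both sides of 0 in 8 of the 9 other lists on this scale, and median centring moves all points by about -0.12.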

How the data were processed

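Extraocular muscle RNA of 4 hyperthyroid and 4 control rats was compared. The deposited values are linear intensities, 1 per probe set and array; the submitters' processing notes name GCOS. Their mean after 2% trimming at each end was 150.05 to 150.06 on every array, so they had been scaled. Values were set to at least 1 and taken to log2. Of 31042 non-control probe sets (57 controls left out), 20826 had 1 symbol, 436 several and 9780 none in the platform annotation. The upper 60% by mean log2 signal (18625, above a signal of about 28.2) were tested with limma 3.58.1 in R 4.3.3 (lmFit, eBayes with a trend, two-sided, Benjamini-Hochberg adjustment, threshold 0.05). The script was tested on simulated data. A listed gene was represented by its brightest probe set. All member probe sets were named, and from each other list up to 2 genes of smallest p, with Hspa1a, Dnajb1, Hsph1 and Hsf1. Ptges3, Cdc37, Bag3, Dnajb6, Hsbp1, Hspe1, Atf4, Xbp1 and Sil1 were named after their values were seen. Members and lists were chosen with earlier results of these data known. The design text gives 8 rats for the 8 arrays but does not tie them, so p-values measure the spread between these samples. The number of arrays limits the precision. Alternatives covered normalization, filter, offset, moderation, array weights, a Gapdh covariate and left-out arrays. The fit without hyperthyroid 1 and control 11 was added after seeing the data. Promoter windows were RefSeq's, on GRCr8; coordinates are 1-based.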

Additional observations from a re-analysis of the deposited data

Results flagged for a closer look

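Both groups of 42 probe sets, those of the members and the brightest of each other named chaperone gene, were checked for a lone array far from the other 3, and 7 of 84 groups held one; chance gives about 1 in 20. Hsp90ab1 1375335_at stood at 344 on hyperthyroid 5 against 175 to 181 on the other hyperthyroid arrays. Hspb7 1392435_at stood at 110 on control 8 against 60.9 to 66.9 on the other controls. Hspbp1, a nucleotide exchange factor of HSP70, stood at 153 on control 9 against 135 to 138. Bag5 stood at 343 on hyperthyroid 1 against 284 to 289. Pdia4 stood at 269 on control 11 against 172 to 179. Hspa1a stood at 527 on hyperthyroid 2 against 424 to 439. Bag3 stood at 699 on hyperthyroid 5 against 1108 to 1189.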

How the results depend on the processing

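Both Hsp90ab1 probe sets kept their direction and an unadjusted limma p under 0.05 in all 20 settings, the reported one included; for Hspd1 this held in 18, for Hspb8 1387282_at in 16 and for Hspb7 1392435_at in 10. The count of member probe sets at that level, 5 as reported, was 3 with quantile normalization, 3 without a trend and 3 without hyperthyroid 1 and control 11, and 3 to 5 when single arrays were left out. Apart from the lower share without hyperthyroid 5, the shares of all probe sets in these settings are not given, so these counts have no background. The adjusted count, 0 as reported, was 1 without hyperthyroid 2 and 5 (Hsp90ab1 1375335_at, at -1.26 with an adjusted limma p of 0.0406). It was 0 to 1 when single arrays were left out. How many of all probe sets the fit without hyperthyroid 2 and 5 called is not given, so its 1 call has no share beside it. The 4 probe sets without overlap, all lower, became 2 with median centring and 7 without hyperthyroid 2 and 5. The probe sets that overlapped with median centring were Hsp90ab1 1375335_at and Hspb8 1387282_at. Of the 7, Hspb7 1392435_at was higher and the others lower. Groups of fewer arrays separate more easily, and the share over all probe sets is not given for those settings. The median member difference of -0.11 became -0.23 and -0.26 in those settings, -0.051 with quantile normalization and -0.19 to -0.025 when single arrays were left out, nearest to 0 without hyperthyroid 3. The chaperone list count of 13 was 7 without hyperthyroid 1 and control 11, and the share of all genes in that fit is not given. Small differences changed sign. Hspb1 stood at 0.037 with quantile normalization and at -0.11 to 0.075 when single arrays were left out. Cryab stood at -0.083 with median centring, -0.10 with array weights, -0.036 with the Gapdh covariate, -0.11 without hyperthyroid 2 and 5, -0.14 without hyperthyroid 1 and control 11, and at -0.12 to 0.15 when single arrays were left out. Hspb7 1372649_at stood at -0.070 with array weights, -0.32 without hyperthyroid 2 and 5, and at -0.078 to 0.41 when single arrays were left out. Hspb8 1388721_at stood at 0.0011 without hyperthyroid 1 and control 11 and at -0.15 to 0.0079 when single arrays were left out. Dnajb1 stood at -0.056 with median centring and at -0.034 to 0.12 when single arrays were left out. Hspe1 stood at -0.051 with median centring, -0.060 without hyperthyroid 1 and control 11, and at -0.0051 to 0.15 when single arrays were left out. No paired analysis was possible because the groups share no replicate number. The causes of these changes were not tested.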
